A study of Homo sapiens with 12 samples.

Results

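Mitophagy receptors are proteins of the mitochondrial membranes that tether a mitochondrion to the growing autophagosome. The 8 genes followed here, receptors of this kind and the related PINK1 and FAM162A, were BNIP3, BNIP3L, FUNDC1, PINK1, BCL2L13, FKBP8, PHB2 and FAM162A. They were chosen with earlier results of these data known, and their rows were found by gene symbol in the count table. That table held 60664 genes, and all 8 symbols occurred in it on a single gene identifier. The cells were MDA-MB-231, an established human line of triple-negative breast cancer. The 12 RNA libraries were 4 of wild-type (WT) cells left untreated in normoxia, 4 of WT cells after 24 hours of hypoxia, and 4 of untreated CCAR2-/- cells (CCAR2 KO), in which the gene of the DBC1 protein was disrupted with a lentiviral CRISPR guide. No hypoxic KO cells were among the groups, and whether the KO cells came from a single clone was not stated in the sources used here. The comparisons ask what hypoxia did to these transcripts in WT cells and what loss of CCAR2 did without hypoxia.

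Mitophagy removes mitochondria through the autophagosome, a double-membraned vesicle that fuses with the lysosome. Along the receptor route, a protein of the mitochondrial outer membrane binds proteins of the ATG8 family on the vesicle directly. Along the ubiquitin route, the kinase PINK1 builds up on damaged mitochondria and sets off the tagging of their surface with ubiquitin, and adaptor proteins then link ubiquitin to ATG8 proteins. In low oxygen, hypoxia-inducible factor (HIF) binds a short core sequence near its target genes, and BNIP3 and BNIP3L are well-known targets.

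The sequence upstream of the gene start was searched for the HIF core, spelled ACGTG or GCGTG, on both strands. RefSeq promoter sequences of build GRCh38.p14 were matched for 5 of the 8 genes, namely BNIP3, FAM162A, FUNDC1, PHB2 and BCL2L13, and not for BNIP3L, PINK1 and FKBP8. The stretches below are shown because BNIP3 and FAM162A changed most in hypoxia among the genes with a sequence, and FUNDC1, a receptor tied to hypoxic mitophagy, was not called. Capitals mark each match to the core, which reads CACGT or CACGC where the match lies on the opposite strand. Each is printed 5′ to 3′ on the strand of its gene, and bases inside the GENCODE gene are left out. The positions are chr10:131982014-131982173 (minus strand) for BNIP3, chr3:122383932-122384175 (plus strand) for FAM162A and chrX:44543002-44543109 (minus strand) for FUNDC1.
BNIP3: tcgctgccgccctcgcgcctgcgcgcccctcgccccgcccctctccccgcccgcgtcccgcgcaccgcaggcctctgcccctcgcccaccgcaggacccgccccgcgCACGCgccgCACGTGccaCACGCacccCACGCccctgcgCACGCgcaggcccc
FAM162A: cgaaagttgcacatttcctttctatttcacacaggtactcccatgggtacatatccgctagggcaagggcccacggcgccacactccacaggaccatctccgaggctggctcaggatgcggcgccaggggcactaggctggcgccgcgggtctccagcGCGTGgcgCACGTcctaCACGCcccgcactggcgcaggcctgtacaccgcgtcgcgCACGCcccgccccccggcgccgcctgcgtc
FUNDC1: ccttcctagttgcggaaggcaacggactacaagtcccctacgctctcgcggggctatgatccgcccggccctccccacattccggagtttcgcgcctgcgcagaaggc

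Within 250 bases before the RefSeq start, BNIP3 held 6 matches to the core, and FAM162A held 4. The BNIP3 matches lay between 143 and 100 bases before the start, and a pair of them overlapped as the palindrome CACGTG, which reads the same on both strands and was counted once per strand. The FAM162A matches lay between 92 and 32 bases before the start. FUNDC1, PHB2 and BCL2L13 held 0 matches in the same window. Of 35116 RefSeq promoters, 43.2% held at least 1 match, 3.22% at least 4 and 0.646% at least 6. A longer motif searched on both strands, GTAAACA, which FOXO factors bind, had 0 matches in the 5 promoters and occurred in 2.98% of all promoters. A match describes letters and does not show that a factor binds there.

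**Figure D1:**
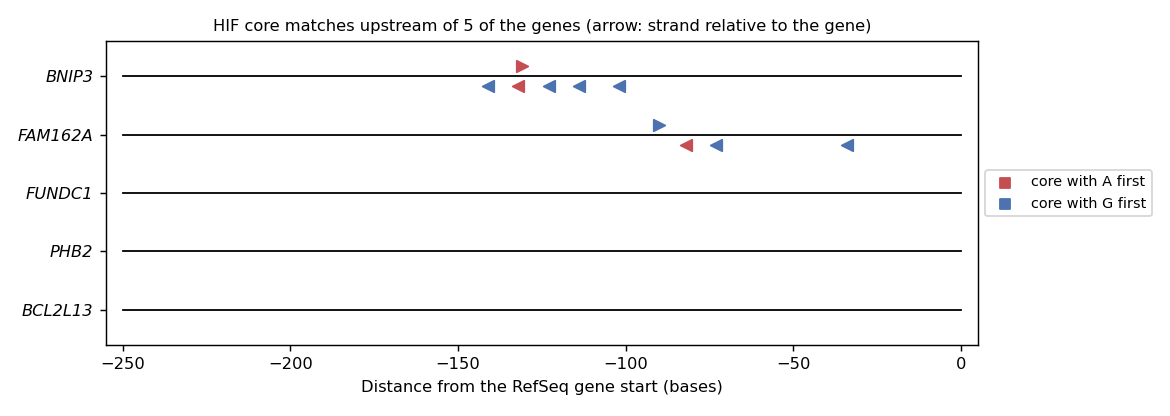
Positions of the HIF core in the 250 bases before the RefSeq start of the 5 genes with a promoter sequence. The x axis gives the distance from the start in bases, each arrow is a match on the strand of the gene (right) or on the opposite strand (left), and matches are seen for BNIP3 (6) and FAM162A (4) alone of these 5 genes.

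Levels are given in CPM, the count of a gene as a part of its library's total, scaled to the same total in every library after TMM normalization, a scaling that assumes that most genes do not differ. The sums of the deposited values were between 153904088 and 213743693 in WT normoxia, 76384973 and 195621872 in WT hypoxia, and 68599412 and 152328450 in CCAR2 KO. CCAR2 itself was at 146 ± 3.11 CPM in WT normoxia (SD, n = 4), 149 ± 4.95 CPM in WT hypoxia and 57.8 ± 2.81 CPM in CCAR2 KO. The lowest WT library was at 143 CPM and the highest KO library at 61.3 CPM, so CCAR2 followed the labels in each library, although some of its RNA was still present in KO cells. The mesenchymal markers VIM (5103 CPM), AXL (1141 CPM) and CD44 (629 CPM) were high in WT normoxia, and the luminal and epithelial markers ESR1 (0.266 CPM), PGR (0.041 CPM) and CDH1 (0.042 CPM) were near 0. The other 3 markers of the luminal list were detected, with EPCAM at 14.4 CPM, GATA3 at 5.93 CPM and FOXA1 at 1.34 CPM. The methods call the replicates biological but give other numbers of them than the 4 libraries per group, and the labels do not tie libraries to separate cultures. The p-values therefore measure the spread between libraries, part of which may be technical. In bulk RNA, fewer cells that carry a transcript and less of it per cell cannot be told apart.

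A gene was called when edgeR's quasi-likelihood test gave an adjusted p-value (Benjamini-Hochberg, over all genes tested) under 0.05 and the log2 fold change was at least 0.5 in size. Hypoxia raised BNIP3, FAM162A and BNIP3L in WT cells, while the other 5 genes were not called. All 8 genes passed the filter on low counts. The 3 called genes were 3 of 8, set against 5.83% of the 21776 genes tested that were called higher in hypoxia. The 8 genes were chosen with earlier results of these data known. Such shares and medians, here and in the other comparisons, therefore describe the genes and do not test them as a set. In the other direction 0 of the 8 were called lower by edgeR, DESeq2 or limma-voom, against 1.43% of genes tested, with 0 lower also where p was left unadjusted at 0.05. With the adjusted p-value alone and no limit on the fold, 5 of 8 were higher (background 11.6%) and 0 were lower (background 12%). The median log2 fold change of the 8 genes was 0.28, and that of all genes tested was 0.01.

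BNIP3 encodes a BH3-only protein of the outer membrane that binds ATG8 proteins directly, and it lies at chr10:131966455-131982013 on the minus strand (GRCh38, GENCODE). Its level in WT normoxia was 115, 120, 118 and 118 CPM in the 4 libraries. After 24 hours of hypoxia it was 319, 383, 318 and 347 CPM, so every hypoxic library lay far above every normoxic library. BNIP3 rose 2.89-fold, a log2 fold change of 1.53 (SE 0.07, 95% CI 1.39 to 1.67, Benjamini-Hochberg adjusted p = 2.4e-07 in edgeR's quasi-likelihood test). The spread among hypoxic libraries (SD 30.7 CPM) was larger than among normoxic libraries (SD 2.33 CPM), and replicate 2 was the highest. The table also holds 39 BNIP3 pseudogenes, near copies to which reads can be misassigned. Of these, 17 were at 0 in all libraries, and their summed counts came to between 0.617% and 2.63% of the BNIP3 count.

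BNIP3L, also called NIX, is the closest relative of BNIP3 and the receptor by which maturing red cells clear their mitochondria. It was at 80.7, 84.1, 75.7 and 82.6 CPM in WT normoxia and at 136, 155, 130 and 134 CPM in hypoxia. The groups did not overlap, and replicate 2 was again the highest hypoxic library. BNIP3L rose 1.71-fold, with a log2 fold change of 0.77 (SE 0.06, 95% CI 0.63 to 0.91, Benjamini-Hochberg adjusted p = 3.3e-05 in edgeR's quasi-likelihood test). Its rise is below a log2 fold change of 1, so it is not called where that limit is used. BNIP3L lies at chr8:26382898-26505636 on the plus strand and shares 330 exonic bases with PNMA2 on the opposite strand. PNMA2 had up to 93.6% of the BNIP3L count, and its own log2 fold change in hypoxia was 0.20, past the adjusted p-value and less than a call requires. Whether the counting used the strand was not stated, so reads in the shared bases cannot be assigned with certainty.

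FAM162A encodes a small mitochondrial protein known as a HIF target with a role in hypoxic cell death, and it lies at chr3:122384176-122412334 on the plus strand. It was at 24.6, 27.1, 26.5 and 22.7 CPM in WT normoxia and at 49.6, 60.5, 48.6 and 51.7 CPM in hypoxia. The lowest hypoxic library was well above the highest normoxic library. FAM162A rose 2.07-fold, with a log2 fold change of 1.05 (SE 0.08, 95% CI 0.87 to 1.23, Benjamini-Hochberg adjusted p = 1.6e-05 in edgeR's quasi-likelihood test). Without WT hypoxia replicate 2, in which BNIP3, BNIP3L and FAM162A were all highest, the log2 fold changes were 1.47, 0.71 and 0.97, and all 3 genes were still called. In the plot of levels by library each gene has its own scale. Relative to their level, these 3 genes show the widest steps in hypoxia of the 8. FKBP8 and PINK1 show smaller relative steps without overlap.

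**Figure D2:**
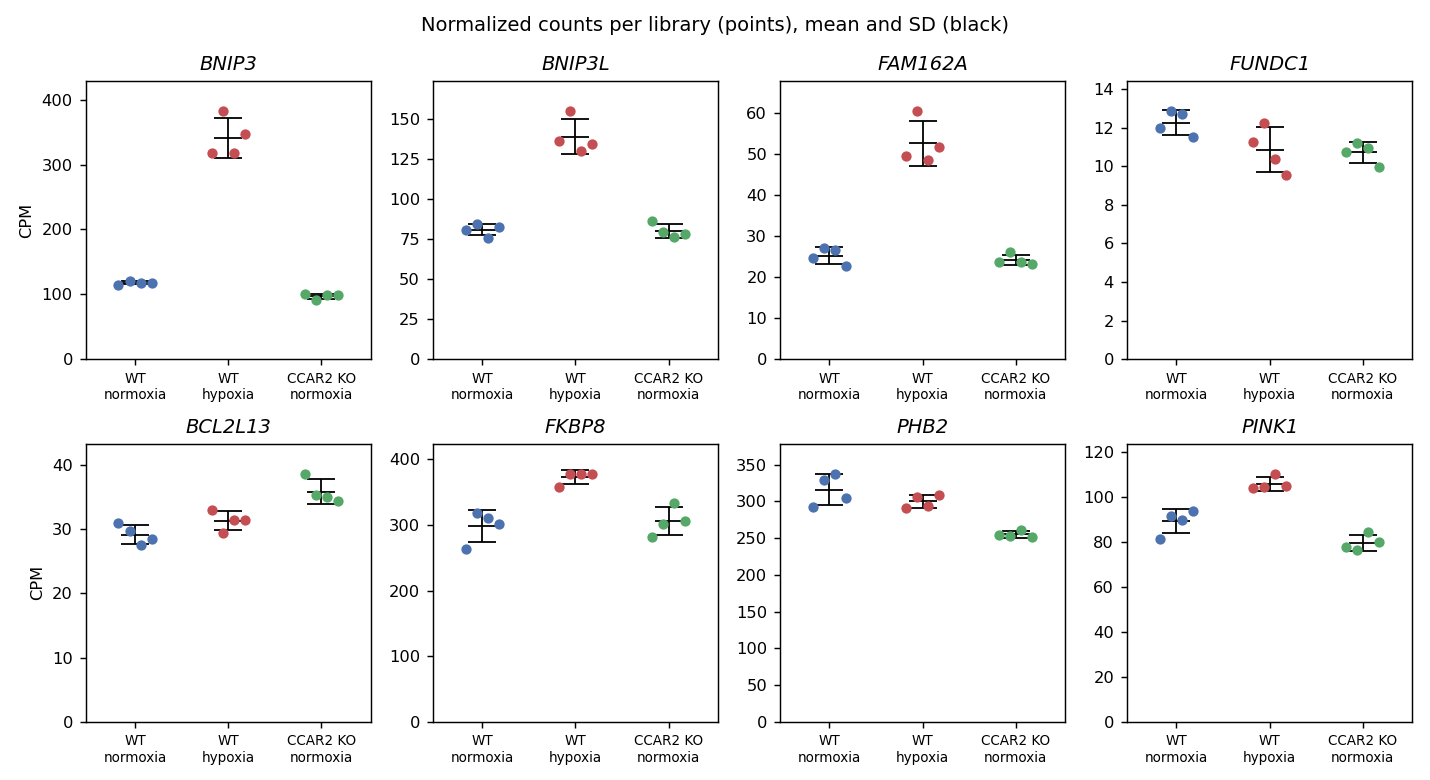
Level of each gene in every library, in CPM on a linear axis that starts at 0 and is scaled for each gene on its own. Points are libraries, 4 per group in the order of their replicate numbers, and black lines give the mean and SD. BNIP3, BNIP3L and FAM162A stand apart in WT hypoxia, with means of 342, 139 and 52.6 CPM.

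Among the outer membrane receptors, FUNDC1 did not pass the test in hypoxia with all libraries in the fit. FUNDC1 binds ATG8 proteins once its phosphorylation is removed in hypoxia, a step that RNA counts do not see, and it lies at chrX:44523639-44543001 on the minus strand. It was at 11.98, 12.9, 12.7 and 11.5 CPM in WT normoxia and at 11.3, 12.2, 10.4 and 9.56 CPM in hypoxia, and the groups overlapped. The log2 fold change was -0.19 (95% CI -0.38 to 0.01, Benjamini-Hochberg adjusted p = 0.168 in edgeR's quasi-likelihood test), an interval that leaves out any rise of more than 0.01. With single libraries left out, the log2 fold change of FUNDC1 ranged from -0.25, without WT hypoxia replicate 2, to -0.12. Its Benjamini-Hochberg adjusted p-value in edgeR's quasi-likelihood test then ranged from 0.0449 to 0.392. FUNDC1 did not pass in 7 of the 8 refits, so whether it passed as lower depended on the libraries used. BNIP3 and FUNDC1, both receptors linked to hypoxic mitophagy, had separate intervals in the same libraries.

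BCL2L13 and FKBP8 are 2 further receptors of the outer membrane. BCL2L13 is a BCL2-family protein regarded as a mammalian counterpart of the yeast receptor Atg32, and it lies at chr22:17628855-17730855 on the plus strand. It was at 31.0, 29.7, 27.5 and 28.4 CPM in WT normoxia and at 33.0, 29.3, 31.5 and 31.5 CPM in hypoxia. These groups overlapped, and the log2 fold change of 0.10 did not pass (95% CI -0.03 to 0.22, Benjamini-Hochberg adjusted p = 0.270 in edgeR's quasi-likelihood test). FKBP8, an immunophilin anchored in the outer membrane, lies at chr19:18531751-18544077 on the minus strand. It was at 263, 318, 310 and 302 CPM in WT normoxia and at 358, 378, 378 and 378 CPM in hypoxia. All hypoxic libraries were higher, by a log2 fold change of 0.31 (SE 0.06, Benjamini-Hochberg adjusted p = 0.00463 in edgeR's quasi-likelihood test), less than a call requires.

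PHB2, a prohibitin of the inner membrane that becomes a receptor when the outer membrane ruptures, lies at chr12:6965327-6970825 on the minus strand. It was at 292, 329, 338 and 305 CPM in WT normoxia and at 291, 307, 294 and 308 CPM in hypoxia, with overlap and a log2 fold change of -0.08 (95% CI -0.21 to 0.04). PINK1, the kinase that starts the ubiquitin route, lies at chr1:20633455-20651511 on the plus strand. Its level was 81.5, 91.7, 89.7 and 93.9 CPM in WT normoxia and 104, 104, 110 and 105 CPM in hypoxia. Each hypoxic library was above each normoxic library, and PINK1 passed the adjusted p-value with a log2 fold change of 0.24 (SE 0.06, Benjamini-Hochberg adjusted p = 0.00997 in edgeR's quasi-likelihood test), less than a call requires. The antisense gene PINK1-AS shares 1907 exonic bases with PINK1 and had up to 39.8% of its count. The log2 fold change of PINK1-AS was 0.09, which did not pass the test.

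Loss of CCAR2 in normoxia moved 0 of the 8 genes past the limit for a call by edgeR, DESeq2 or limma-voom. Across all genes tested, 6.73% of 21410 were called higher and 2.94% lower in CCAR2 KO. With the adjusted p-value alone, 4 of the 8 were lower (background 15.4%) and 1 was higher (background 14.9%), and with p left unadjusted the counts were the same, 4 lower and 1 higher. The median log2 fold change of the 8 genes was -0.12, against 0.01 for all genes tested. These differences were small, at most 0.31 in size on the log2 scale.

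BNIP3 was at 99.9, 91.5, 98.2 and 98.6 CPM in CCAR2 KO, and every KO library lay below every WT normoxia library. It fell by 0.28 on the log2 scale (SE 0.04, Benjamini-Hochberg adjusted p = 1.7e-04 in edgeR's quasi-likelihood test), the opposite direction from hypoxia. PHB2 was at 254, 253, 261 and 252 CPM in KO cells, again with no overlap with WT normoxia. It fell by 0.31 on the log2 scale (SE 0.05, adjusted p = 3.9e-04 in the same test). BCL2L13 was the member that rose, at 38.7, 35.3, 35.1 and 34.5 CPM in KO cells and with no overlap. Its log2 fold change was 0.30 (SE 0.06, adjusted p = 0.00154 in the same test).

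PINK1 and FUNDC1 were also lower in KO cells, close to the threshold. PINK1 was at 77.9, 76.4, 84.4 and 79.9 CPM, overlapping WT normoxia, with a log2 fold change of -0.16 (adjusted p = 0.0271 in edgeR's quasi-likelihood test, p = 0.0571 by a two-sided exact permutation test of log2 CPM). FUNDC1 was at 10.7, 11.2, 10.96 and 9.97 CPM with a log2 fold change of -0.20 (Benjamini-Hochberg adjusted p = 0.0462 in edgeR's quasi-likelihood test). Leaving out single libraries took the adjusted p-value of PINK1 up to 0.0815 and that of FUNDC1 up to 0.138. Both were above 0.05 in 6 of the 8 refits. With 4 libraries against 4, the smallest p that the exact permutation test allows is 0.0286, and it was reached by BNIP3, PHB2, BCL2L13 and FUNDC1.

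BNIP3L, FAM162A and FKBP8 did not pass in KO cells. BNIP3L was at 85.9, 79.2, 76.0 and 77.9 CPM, and its log2 fold change of -0.02 had a 95% CI of -0.12 to 0.09 (Benjamini-Hochberg adjusted p = 0.819 in edgeR's quasi-likelihood test). FAM162A was at 23.6, 26.0, 23.6 and 23.2 CPM, with a log2 fold change of -0.07 (95% CI -0.21 to 0.08). FKBP8 was at 282, 301, 334 and 306 CPM, with a log2 fold change of 0.04 (95% CI -0.11 to 0.18). The groups overlapped for all 3 genes, although BNIP3L in KO replicate 1 and FKBP8 in KO replicate 3 were above every WT normoxia library.

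**Figure D3:**
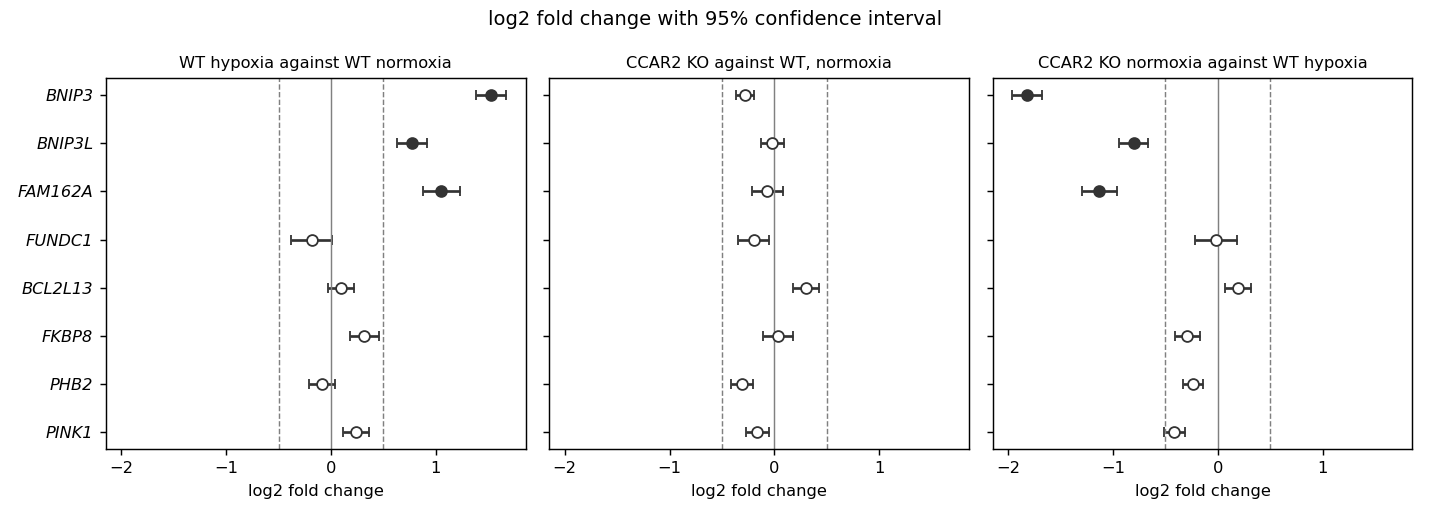
Log2 fold change of each gene in the 3 comparisons, with its 95% confidence interval from edgeR. Filled points were called, open points were not, and dashed lines mark a log2 fold change of 0.5 in either direction. BNIP3, BNIP3L and FAM162A are called in both comparisons that hold WT hypoxia and in none between the normoxic groups.

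The effects of hypoxia and of CCAR2 loss are both measured against the same WT normoxia libraries, so their difference was tested by setting CCAR2 KO against WT hypoxia directly. BNIP3, FAM162A and BNIP3L were lower in the KO cells, with log2 fold changes of -1.82, -1.13 and -0.80, and 0 of the 8 were called higher. This is 3 of 8 called lower, beside 7.88% of 21158 genes tested, while 7.08% of genes tested were called higher. With the adjusted p-value alone 6 of 8 were lower (background 17.8%) and 1 was higher (background 17.1%). The median log2 fold change was -0.35 for the 8 genes and -0.02 for all genes tested.

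BNIP3 differed most of the 8, with a log2 fold change of -1.82 (Benjamini-Hochberg adjusted p = 1.1e-08 in edgeR's quasi-likelihood test). PINK1, FKBP8 and PHB2 had log2 fold changes of -0.41, -0.29 and -0.24 and BCL2L13 of 0.19, all past the adjusted p-value but within the limit for a call. FUNDC1 was at the same level in both groups within its spread, with a log2 fold change of -0.02 (95% CI -0.22 to 0.18). The effect of hypoxia and that of CCAR2 loss thus differed for 7 of 8 genes by the adjusted p-value, and BCL2L13 was past it by the least, at 0.0235 in edgeR's quasi-likelihood test. For BCL2L13 the adjusted p-value rose to 0.0620 when single libraries were left out.

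Levels of different genes were compared per length, as CPM per kilobase of the union of a gene's GENCODE exons. In WT normoxia the order was PHB2 (126), FKBP8 (103), BNIP3 (22.1), BNIP3L (18.8), PINK1 (18.4), FUNDC1 (8.77), FAM162A (6.65) and BCL2L13 (3.80 CPM per kilobase). BNIP3L and PINK1 overlapped between libraries and so did not differ beyond their spread, while the libraries of the other neighbours in this order did not overlap. Among 20254 genes ranked by this level, PHB2 was at rank 308, FKBP8 at 404, BNIP3 at 2266 and BCL2L13 at 8078. These ranks depend on the length used, since BNIP3 has an exon union of 5325 bases and a longest transcript of 3066 bases.

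BNIP3 made up 7.19% ± 0.305 of the summed level per length of the 8 genes in WT normoxia (SD, n = 4). Its share was 16.3% ± 0.879 in hypoxia and 6.53% ± 0.308 in CCAR2 KO. PHB2 made up 41.1% in WT normoxia, 30.6% in hypoxia and 36.5% in KO cells, while FKBP8 made up 33.4%, 32.8% and 37.7%. The share of BNIP3L was 6.11%, 8.20% and 6.64%. Shares of a sum are tied to each other, so a larger share of BNIP3 lowers the rest without any change in their level. In the plot of shares by library, the BNIP3 band is wider in each of the 4 hypoxic libraries than in each of the other 8.

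**Figure D4:**
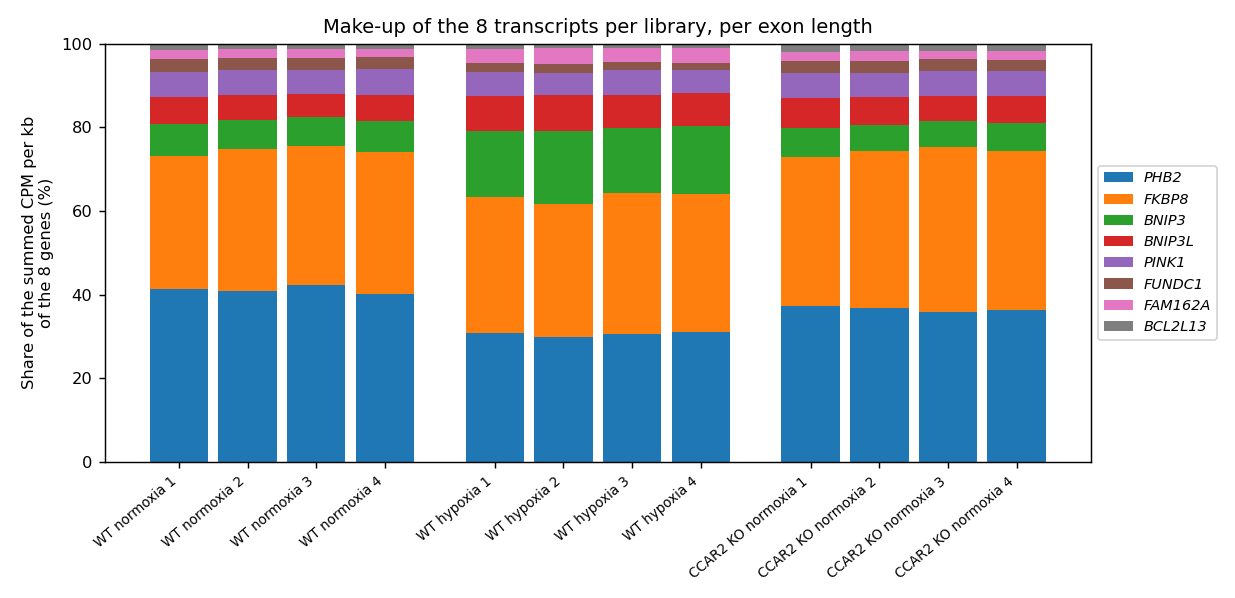
Share of each gene in the summed CPM per kilobase of the 8 genes, in percent, for each library. Bars are libraries in the order of their replicate numbers, and colours are genes. The BNIP3 band goes from a mean of 7.19% in WT normoxia to 16.3% in WT hypoxia.

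The ratio of BNIP3 to BNIP3L, chosen for a look after the values were known, moved with both conditions. Per length it was 1.15, 1.16, 1.26 and 1.16 in the WT normoxia libraries, a mean of 1.18 ± 0.0511 (SD, n = 4). In hypoxia it was 1.89, 2.002, 1.98 and 2.09, and in KO cells 0.941, 0.934, 1.05 and 1.02. The 3 groups did not overlap, and each of the 3 pairs reached the smallest p the exact permutation test allows, 0.0286, also after Benjamini-Hochberg adjustment over the 3. Since the ratio was picked with these values in view, the p-values describe it and are not an independent test. The difference in log2 ratio was 0.76 for hypoxia against WT normoxia and -0.26 for KO against WT normoxia. With the longest transcript as the length, the mean ratios were 1.72, 2.90 and 1.44 in the same order.

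Other genes were ranked by how closely their profile over the 12 libraries followed each of the 8, as the root mean square difference of centred log2 CPM over 14692 genes. The nearest to BNIP3 were RPL13AP20 (0.145), ENO2 (0.161), which encodes a glycolytic enolase, and PPP1R3G (0.192). Those nearest to BNIP3L were C4orf3 (0.0691), NIPSNAP1 (0.0858) and MXI1 (0.101). Those nearest to FAM162A were PGK1 (0.0874), which encodes a glycolytic kinase, HILPDA (0.101), a lipid droplet protein induced in hypoxia, and NREP (0.143). The genes nearest to the 5 others were closer, such as TIMM50 to PHB2 (0.0265) and B4GALT2 to PINK1 (0.0329). This difference is not scaled by the size of a gene's change. A smaller value for a gene that changed little is therefore not a tighter match in pattern. Among the 8 themselves, BNIP3L lay closer to FAM162A (0.188) than BNIP3 did (0.314), FUNDC1 was nearest to PHB2 (0.129), and PINK1 was nearest to FKBP8 (0.133).

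The wider mitophagy pathway was read from 7 lists with 77 other genes, of which 76 passed the filter on low counts. In hypoxia 2 of the 76 were called higher (background 5.83% of genes tested) and 2 lower (1.43%). Without the limit on the fold 6 were higher (background 11.6%) and 22 lower (12%). The median log2 fold change of the 76 was -0.11, beside 0.01 for all genes tested.

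In hypoxia SQSTM1 was called lower, the gene of p62, an adaptor that binds ubiquitin and ATG8 proteins. It was at 204 ± 9.14 CPM in WT normoxia and 139 ± 7.33 CPM in hypoxia (SD, n = 4), and it fell by 0.56 on the log2 scale (SE 0.06). It was the only call among the 6 adaptors and TBK1, where 3 were lower by the adjusted p-value alone (background 12%). NIPSNAP1, a mitochondrial matrix protein that marks damaged mitochondria for autophagy, rose from 17.05 ± 1.17 to 28.6 ± 1.95 CPM (log2 fold change 0.74), the only call among the 6 other receptors and paralogs. Among 24 genes of autophagosome initiation and conjugation, ULK2, a kinase of the initiating complex, was called higher (0.59, from 1.05 to 1.59 CPM), and ATG10, an E2-like enzyme of ATG12 conjugation, was called lower (-0.63, from 3.57 to 2.31 CPM). Both are low and close to the threshold. With single libraries left out, the log2 fold change of ULK2 ranged from 0.46 to 0.76 and that of ATG10 from -0.83 to -0.48, and the Benjamini-Hochberg adjusted p-values of edgeR rose to at most 0.114 and 0.111. ULK2 was lost, and the count of genes called higher became 1, without WT normoxia replicate 1, 2 or 3 or hypoxia replicate 1, 3 or 4. ATG10 was lost, and the count of genes called lower became 1, without WT normoxia replicate 1, 2 or 4 or hypoxia replicate 1 or 3. Without hypoxia replicate 2, NLRX1 was called as well, and 3 genes were higher.

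No gene was called in the other 4 lists in hypoxia. These were the 7 ATG8 genes, 15 tested genes of the PINK1 arm (6 lower by the adjusted p-value alone), 10 partners and regulators of BNIP3, BNIP3L and FUNDC1 (3 lower) and 8 genes of mitochondrial fission and fusion (1 higher, 3 lower). The median log2 fold changes of these lists were 0.04, -0.14, -0.19 and -0.09. Over all genes tested in hypoxia, 5.83% were called higher and 1.43% lower. By the adjusted p-value alone, 11.6% were higher and 12% lower. The ATG8 proteins are those that BNIP3 and BNIP3L bind. In the ATG8 list 0 of the 7 genes passed the adjusted p-value in either direction, but the list is too small to tell this from those shares.

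In CCAR2 KO, 1 of the 76 genes was called higher (background 6.73%) and 2 lower (2.94%). By the adjusted p-value alone 12 were higher (background 14.9%) and 15 lower (15.4%), and the median log2 fold change was -0.03. NLRX1, a mitochondrial protein of the NOD-like receptor family, rose from 6.41 ± 0.567 to 10.6 ± 0.803 CPM (SD, n = 4; log2 fold change 0.73). BCL2, the antiapoptotic protein that BNIP3 binds, fell from 11.8 ± 0.720 to 7.90 ± 0.677 CPM (log2 fold change -0.58). ATG10 was called lower as in hypoxia (-0.52), a call lost without WT normoxia replicate 4 or CCAR2 KO replicate 2, where 1 gene was called lower. Without WT normoxia replicate 1 or KO replicate 3, MAP1LC3A was called lower as a further gene, and without KO replicate 1, GABARAPL1 was called higher, which made 2. SQSTM1 was at 285 ± 5.56 CPM in KO cells, higher by 0.48 on the log2 scale, just under the limit.

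By the adjusted p-value alone in KO cells, where 14.9% of all genes tested were higher and 15.4% lower, the PINK1 arm had 0 genes higher and 6 lower of 15, and the adaptors and TBK1 had 3 higher and 0 lower of 6. Initiation and conjugation had 5 higher and 3 lower of 24, the ATG8 family 1 higher and 0 lower of 7, and fission and fusion 0 higher and 1 lower of 8. Partners and regulators had 1 higher and 3 lower of 10, and other receptors and paralogs 2 higher and 2 lower of 6.

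Set directly against WT hypoxia, CCAR2 KO had 5 of the 76 genes called higher (background 7.08%) and 3 lower (7.88%), neither share above that of all genes. SQSTM1 was higher by 1.03, the ATG8 genes GABARAPL1 and MAP1LC3B2 by 0.64 and 0.60, the adaptor TAX1BP1 by 0.56, and the ATG8-processing protease ATG4A by 0.65. The ATG8 gene MAP1LC3A (-0.75), NIPSNAP1 (-0.72) and the fission gene MIEF2 (-0.60) were lower. MAP1LC3B2 is a near copy of MAP1LC3B, so the division of reads between them is uncertain. SQSTM1 and BNIP3 were ordered in opposite ways, with BNIP3 highest and SQSTM1 lowest in WT hypoxia and the reverse in CCAR2 KO. Of 5 mesenchymal and 4 luminal markers that could be tested in hypoxia, 1 was called, ZEB1, which fell from 62.6 to 43.9 CPM (log2 fold change -0.52), and 0 were called in KO against WT normoxia. Whether this bears on the 8 genes was not tested.

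**Figure D5:**
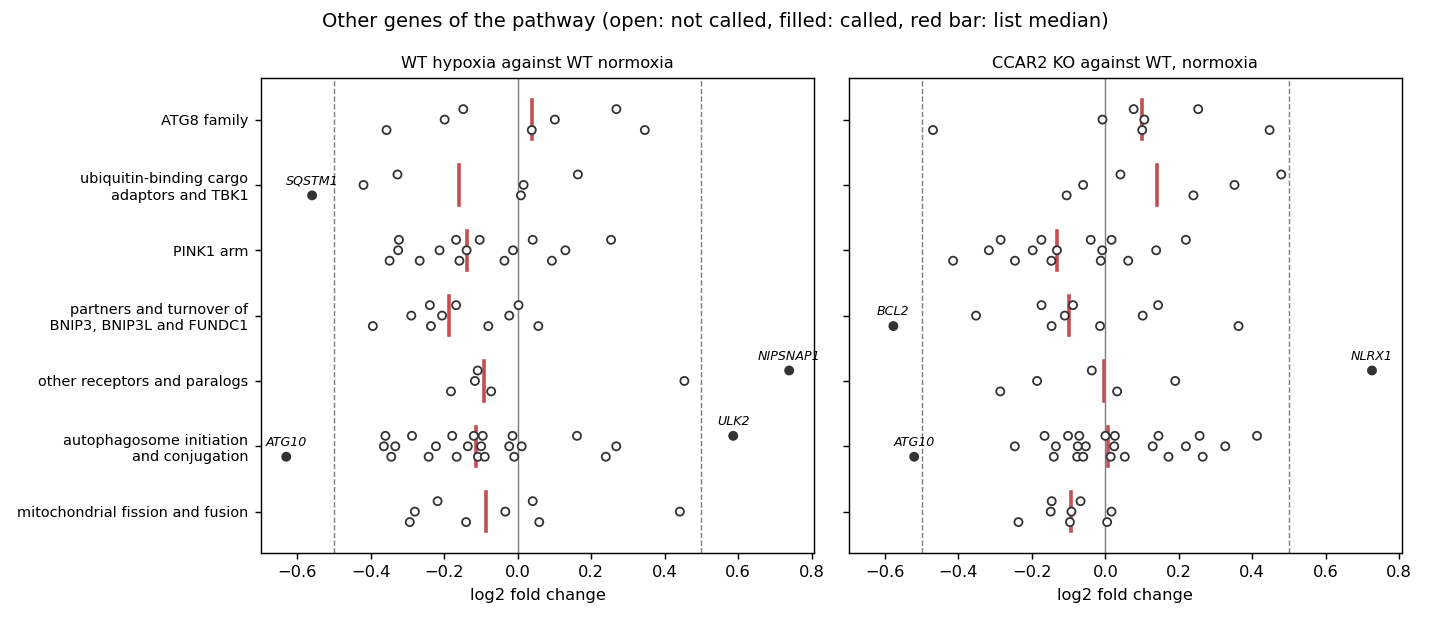
Log2 fold change of the 76 other pathway genes tested, by list, in WT hypoxia and in CCAR2 KO, both against WT normoxia. Each point is a gene, filled where called, the red bar is the median of the list, and dashed lines mark 0.5 in either direction. Called genes are few, 4 in hypoxia and 3 in KO cells, and NIPSNAP1 has the largest rise in hypoxia.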

How the data were processed

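The labels name RNA extraction with Trizol and a TruSeq kit, while the methods name the miRNeasy Mini kit and a NEBNext Ultra library kit. The deposited values are estimated counts per gene, which the authors made with Hisat2 2.2.1 and StringTie 2.1.4 according to the methods, while the submitters' processing notes name HISAT2, SAMtools and featureCounts. The genome build and strand setting are not given in the sources used here. The value 4 was more frequent than 3 or 5 in every library, so sums are not taken as reads. The values were rounded and each comparison was fitted on its 8 libraries with edgeR 4.0.16 (R 4.3.3), TMM, filterByExpr and glmQLFTest, and genes were called as the text states. Named genes outside the 8 are, for each list and comparison, the called genes with the largest change (at most 4), and the 3 genes nearest to each member among those with a mean count of at least 100. The 8 genes and all lists were chosen with earlier results of these data known. The ratio of BNIP3 to BNIP3L and the shares were added after values were seen. Replicate numbers did not pair libraries: same-numbered libraries correlated between -0.02 and 0.07 after group means were removed. Between replicates the chi-square per degree of freedom was 14.0 to 97.6. Pairs that held WT hypoxia replicate 2 had 62.8, 97.6 and 70.5, and the other pairs of WT hypoxia had 18.5, 27.6 and 35.8. Positions and lengths come from GENCODE on GRCh38, matched by gene identifier. The alternatives were DESeq2 1.42.0, limma-voom 3.58.1, other normalizations, filters and limits, all 12 libraries in a single fit, values divided by 4, a replicate block, and each library left out.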

Additional observations from a re-analysis of the deposited data

Results flagged for a closer look

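Of 63 groups of 4 libraries checked for a library far from the other 3, 3 were past the limit, and chance alone is expected to give 3.15. PINK1 in WT hypoxia replicate 3 was at 110 CPM, with the other libraries between 104 and 105 CPM, and the gap was 0.845 of the group's range. FKBP8 in WT hypoxia replicate 1 was at 358 CPM, with the others all at 378 CPM, and the gap was 0.998 of the range. FAM162A in CCAR2 KO replicate 2 was at 26.0 CPM, with the others between 23.2 and 23.6 CPM, and the gap was 0.834 of the range.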

How the results depend on the processing

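Each comparison was recomputed under 19 alternatives. In the 408 refits of the 8 genes that kept the rule for a call, the call was the same in 408, and no value of a called gene reversed. With the adjusted p-value alone, hypoxia had 5 of the 8 genes higher, CCAR2 KO had 1 higher and 4 lower, and KO against hypoxia had 1 higher and 6 lower. A log2 fold change of at least 1 left out BNIP3L. The calls of 3 genes stayed at 3 with each library left out, and BNIP3 then ranged from 1.47 to 1.57, BNIP3L from 0.71 to 0.81 and FAM162A from 0.97 to 1.09 in hypoxia. The replicate block gave 3 genes called higher in hypoxia and 0 called in KO, with BNIP3 at 1.53, and changed no other count of calls among the 8 genes or the pathway lists.

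Pathway counts moved more. Hypoxia had 1 gene higher and 1 lower with no filter and 3 higher, NLRX1 being added, and 1 lower with upper-quartile normalization. With the adjusted p-value alone it had 6 higher and 22 lower, and with a log2 fold change of at least 1 it had 0 of each. Leaving out libraries gave 1 to 3 higher and 1 to 2 lower. KO had 12 higher and 15 lower by the adjusted p-value alone and 0 of each at a limit of 1. It had 1 lower with limma-voom, upper-quartile normalization, all 12 libraries in a single fit, or values divided by 4, and 1 to 2 higher and 1 to 3 lower when libraries were left out. KO against hypoxia had 22 higher and 9 lower by the adjusted p-value alone, and 1 and 0 at a limit of 1. The cause of these moves was not tested beyond the change in rule. Over all genes, upper-quartile normalization gave 192 lower in hypoxia beside 312. The adjusted p-value alone gave 2518 higher and 2609 lower in hypoxia, 3199 and 3307 in KO, and 3628 and 3762 in KO against hypoxia. A limit of 1 gave 440 and 47, 604 and 171, and 582 and 637.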
